A study of Mus musculus with 24 samples.

Results

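Expression in the choroid plexus of aged ApoE3 mice on a high-fat diet was compared with that of ApoE3 mice on chow. The 12 arrays of the comparison were those labelled as humanized ApoE3-Knockin choroid plexus, 6 from mice kept on a high-fat diet (HFD) and 6 from mice kept on normal mouse chow (ND), out of 24 arrays in the whole series. The other 12 arrays were from humanized ApoE4-Knockin mice on the same diets, 6 for each diet. All mice were C57BL and 78 weeks old, and all of them, the chow mice included, carried a humanized ApoE allele. In every group replicates 1 to 3 came from males and 4 to 6 from females. The labels give neither the composition of the diet nor its duration, nor how the captured regions were chosen, and none says that each array was a separate animal. The p-values thus reflect the spread between these samples, which may be technical.

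The choroid plexus is a fold of vascular tissue in the brain ventricles, covered by an epithelium that secretes cerebrospinal fluid and the thyroid hormone carrier transthyretin. Beneath the epithelium lie fibroblasts, leaky capillaries and resident macrophages, and the plexus is attached to brain tissue rich in glia and myelin. It takes up leptin, insulin and lipids from blood. Apolipoprotein E carries cholesterol and other lipids between brain cells, and ApoE3 is its most common human form.

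The 12 arrays carried the label's tissue: all 26 choroid plexus epithelial markers on the array passed the detection filter, and their summed signal was 157311 to 174196 on high-fat diet and 160911 to 177224 on chow. Ttr, which encodes transthyretin, read 17304 to 25450 on high-fat diet and 17453 to 21384 on chow. The probe set for mouse Apoe was called Present on 0 of 24 arrays. The arrays of the diets did not differ detectably in quality. On average 55.4% ± 1.76 of probe sets were called Present on high-fat diet and 54.8% ± 0.574 on chow (SD, n = 6 each, exact permutation p = 0.476), and the log2 3' to 5' signal ratio of Actb was 1.85 ± 0.23 and 1.99 ± 0.24 (exact permutation p = 0.348). After adjustment over the 5 array measures the lowest p was 0.794. Signals are given in the arbitrary units of the scanner software, and differences are log2 values of high-fat diet minus chow, ± SE, from limma, with the p adjusted over 13936 probe sets. A probe set is a group of short probes that together read a transcript or several transcripts, and it passed with an adjusted p under 0.05.

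On the high-fat diet a small set of transcripts was higher, and the myelin gene Mbp and the long noncoding RNAs Meg3 and Neat1 rose most among the named genes that passed. Of 13936 probe sets, 34 rose (0.244%) and 1 fell (0.00718%), which together is 0.251%. At an unadjusted p under 0.05 there were 1699 (12.2%). The 35 probe sets included 31 that name 1 gene, for 25 genes that rose and 1 that fell. The rises were small, between 0.31 and 0.82 on the log2 scale, and 6 of the 35 probe sets passed 1.5-fold. In 23 of the 34 every high-fat array lay above every chow array. Over all probe sets 0.696% were higher without overlap, and 0.237% were lower without overlap. The median difference over all probe sets was 0.01, and 52.2% were above 0.

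**Figure D1:**
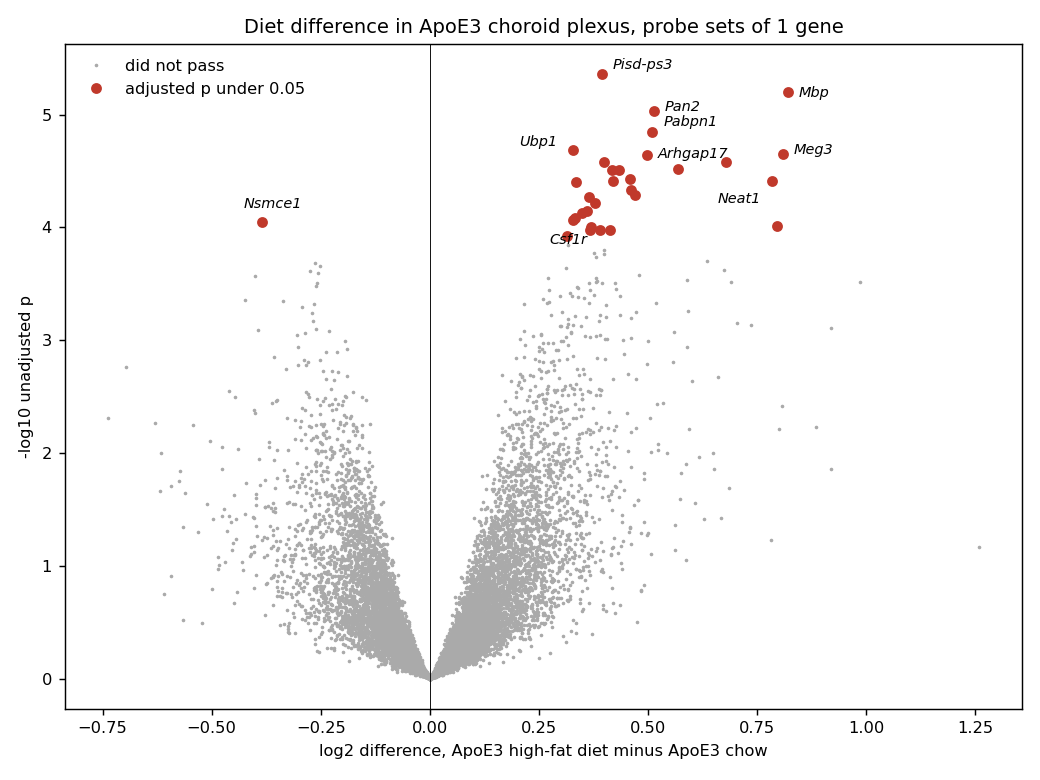
Log2 difference between ApoE3 high-fat diet and ApoE3 chow (x axis) against the -log10 of the unadjusted p (y axis) for probe sets of 1 gene, with those that passed in red. Passing probe sets lie on the right, except Nsmce1 at -0.39.

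The count rested on single arrays. It was 1 without high-fat replicate 4 or without chow replicate 1, 2 without high-fat replicate 6 or chow replicate 3 or 5, 8 without high-fat replicate 1 or 2, 16 without high-fat replicate 5, 20 without chow replicate 4 and 78 without chow replicate 2. The differences of the genes that passed kept their sign in each of these fits.

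Neat1 is a long noncoding RNA that builds the nuclear bodies called paraspeckles. Its signal was 1528, 2465 and 3565 (lowest, median and highest of 6 arrays) on high-fat diet, against 1110, 1454 and 1817 on chow. High-fat replicate 5 was inside the chow range and the other 5 high-fat arrays were above it, a difference of 0.78 ± 0.15 (1.72-fold, adjusted p = 0.0291). Meg3 is a maternally expressed long noncoding RNA abundant in neurons. It read 1514, 1866 and 2460 on high-fat diet and 892, 1054 and 1376 on chow, with no overlap, and rose by 0.81 ± 0.15 (1.75-fold, adjusted p = 0.0291). Its other 3 probe sets differed by 0.36 to 0.43 and did not pass, with a lowest adjusted p of 0.245.

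Pabpn1 encodes the nuclear protein that binds poly(A) tails as they are made. It had a signal of 5117, 6063 and 6696 on high-fat diet and 3627, 4498 and 5136 on chow, and 5 of 6 high-fat arrays were above every chow array. It rose by 0.43 ± 0.09 (1.35-fold, adjusted p = 0.0291). A second Pabpn1 probe set rose by 0.51, and the other 2, at 0.59 and 0.35, did not pass. Hnrnpa2b1, an RNA-binding protein of splicing and RNA transport, read 1503, 1584 and 1713 on high-fat diet and 1079, 1208 and 1398 on chow, without overlap, and rose by 0.40 ± 0.08 (adjusted p = 0.0291). That probe set is 1 of 4 for the gene. The brightest of them differed by 0.06 (adjusted p = 0.71), and the other 2 by 0.35 and 0.56 without passing.

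Pan2, the catalytic subunit of a deadenylase that trims poly(A) tails, read 212, 274 and 282 on high-fat diet and 153, 176 and 199 on chow. The groups did not overlap, and Pan2 rose by 0.51 ± 0.09 (1.43-fold, adjusted p = 0.0291). Rbm22, a spliceosome component, had signals of 208, 231.5 and 244.5 on high-fat diet and 156, 173 and 188 on chow, also without overlap. It rose by 0.38 ± 0.08 (adjusted p = 0.0352). The RNA helicase gene Helz rose by 0.37 ± 0.08 (adjusted p = 0.0433), while its other probe set differed by 0.01. Ogt, whose enzyme attaches N-acetylglucosamine to nuclear and cytosolic proteins, read 839, 1107 and 1197 on high-fat diet and 667, 722 and 978 on chow. Here 5 of 6 high-fat arrays were above all chow arrays, and the rise was 0.46 ± 0.10 (adjusted p = 0.0326). A second Ogt probe set rose by 0.57 and the other 3 differed by 0.23 to 0.34 without passing.

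The promoters of 3 of these genes are shown because they were the called genes with a match to the D-box, the binding element of the clock-controlled factor encoded by Dbp. The windows are from RefSeq on GRCm38.p6 and run from 250 bases before to 50 after the transcript start. They are chr6:51469845-51470144 (minus strand) for Hnrnpa2b1, chr14:54893893-54894192 (plus strand) for Pabpn1 and chrX:101639801-101640100 (plus strand) for Ogt. Capitals mark the D-box (TTANGTAA, on either strand) and, in Hnrnpa2b1, also an ATF4 element (TGATGNAA) before it and a heat shock element (GAANNTTC) after it.
Hnrnpa2b1 promoter: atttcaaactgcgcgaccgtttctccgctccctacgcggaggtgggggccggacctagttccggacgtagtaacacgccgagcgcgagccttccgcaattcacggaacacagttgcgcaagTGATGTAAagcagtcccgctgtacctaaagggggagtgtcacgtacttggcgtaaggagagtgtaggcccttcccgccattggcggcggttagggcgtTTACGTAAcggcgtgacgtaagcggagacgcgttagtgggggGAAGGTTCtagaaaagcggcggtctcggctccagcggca
Pabpn1 promoter: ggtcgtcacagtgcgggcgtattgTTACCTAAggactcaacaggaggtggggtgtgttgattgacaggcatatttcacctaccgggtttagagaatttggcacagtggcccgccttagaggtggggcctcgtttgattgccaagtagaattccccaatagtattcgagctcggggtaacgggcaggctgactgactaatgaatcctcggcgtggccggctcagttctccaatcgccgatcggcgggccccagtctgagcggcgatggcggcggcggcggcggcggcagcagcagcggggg
Ogt promoter: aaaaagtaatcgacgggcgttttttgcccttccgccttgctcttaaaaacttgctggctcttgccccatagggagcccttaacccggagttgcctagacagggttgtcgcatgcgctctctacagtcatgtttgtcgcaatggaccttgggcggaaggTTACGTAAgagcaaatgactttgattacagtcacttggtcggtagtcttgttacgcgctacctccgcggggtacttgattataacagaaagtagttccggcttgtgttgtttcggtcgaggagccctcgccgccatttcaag
Of 26 called genes 20 had a window in the table, 28 windows in all. The D-box was in 4 of the 28 windows (14.3%), those of 3 genes, and in 2.32% of all 32851 windows. The E-box (CACGTG) was in 1 of 28, of Napa, and in 7.15% of all windows. The heat shock element was in 2 of 28, both of Hnrnpa2b1, and in 7.86% of all. The ATF4 element was in 3 of 28, of Hnrnpa2b1 and Top3b, and in 3.97% of all. The interferon element (GAAANNGAA) was in 1 of 28, of Nfkbia, and in 8.56% of all, and the glucocorticoid receptor site (TGTTCT) in 1 of 28, of Fbxw5, and in 19.0% of all. The sterol element (TCACNCCAC) was in 0 of 28 and in 1.24% of all. The 2 windows of Hnrnpa2b1 overlap, so its matches are counted in both. These are matches of letters, counted without a test.

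The wider list of splicing and mRNA processing genes, scored on the brightest probe set of each, had 37 tested members, of which Neat1 rose and 0 fell. Hnrnpa2b1 is in this list too, but its brightest probe set did not pass. Its median was 0.15, against 0.01 over all probe sets, with 27 of 37 above 0. At an unadjusted p under 0.05, 13 of 37 were higher and 0 lower, against 12.2% of all probe sets in both directions together. The list as a whole was not tested. After Neat1 the smallest p-values were those of the splicing factor Srsf11 (0.25 ± 0.07, adjusted p = 0.103), the splicing regulator Rbm5 (0.22 ± 0.06, adjusted p = 0.149) and the RNA helicase Ddx5 (0.19 ± 0.06, adjusted p = 0.153). Malat1, the other abundant nuclear noncoding RNA of the list, differed by 0.40 ± 0.32 (adjusted p = 0.665). Probe sets marked by the manufacturer as matching several transcripts of 1 gene made up 14 of the 35 called and 19.6% of those tested. The kinds marked x and s, whose probes can also match other transcripts, made up 6 and 4 of the 35. Among those tested they made up 7.96% and 7.99%. The passing probe sets of Meg3, Capn15 and Preb are of kind x, and those of Csf1r, Nfkbia, Helz and Eps8l2 of kind s. Also of kind x are a passing probe set of Mbp, a passing probe set of Pisd-ps3 and the unnamed probe set with the smallest p. Mbp and Pisd-ps3 passed on probe sets of another kind too. Whether the probe sets of kinds x and s bound other transcripts was not tested. The unmarked kind made up 11 of the 35 and 64.5% of those tested.

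**Figure D2:**
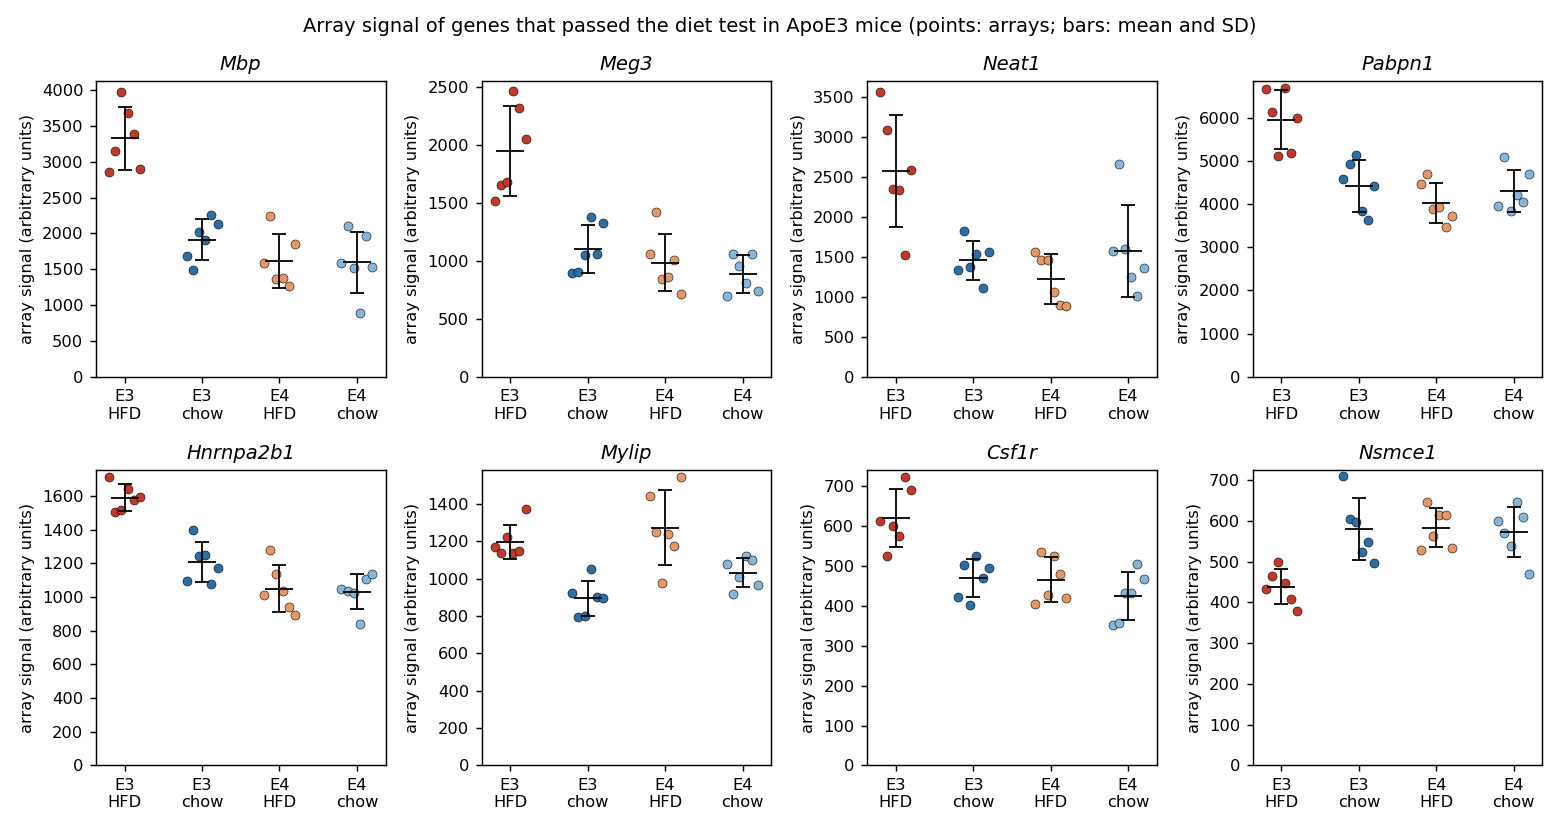
Array signal (y axis, arbitrary units, from 0) of 8 genes with a probe set that passed the diet test in ApoE3, for ApoE3 high-fat diet, ApoE3 chow, ApoE4 high-fat diet and ApoE4 chow. Points are arrays, bars mean and SD of 6 arrays. In ApoE3 Mbp reads 2863 to 3972 on high-fat diet and 1486 to 2260 on chow.

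On the lists of brain cell markers 3 genes passed, Mbp, Meg3 and Eno2. Mbp, a main protein of the myelin sheath, read 2863, 3269 and 3972 on high-fat diet and 1486, 1961 and 2260 on chow. The groups did not overlap, and the rise was 0.80 ± 0.17 (1.74-fold, adjusted p = 0.0433). All 6 Mbp probe sets differed upwards, by 0.67 to 0.92, and 3 passed. Eno2, the enolase of neurons, read 460 to 512 on high-fat diet and 335 to 442 on chow, without overlap, and rose by 0.34 ± 0.07 (adjusted p = 0.0291).

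In the myelin list 1 of 8 tested genes rose and 0 fell, and 8 of 8 were above 0, with a median of 0.27. Mobp, another myelin protein, read 367 to 534.5 on high-fat diet and 229.5 to 357.5 on chow, without overlap, but at 0.59 ± 0.20 it did not pass (adjusted p = 0.208). Ugt8a, which makes the myelin lipid galactosylceramide, differed by 0.52 ± 0.18 (adjusted p = 0.231). In the neuron list 2 of 15 rose, Meg3 and Eno2, and 0 fell, with 13 of 15 above 0 and a median of 0.20. The noncoding RNA Snhg11 differed by 0.50 ± 0.14 (adjusted p = 0.105) and Gad1, the enzyme that makes GABA, by 0.37 ± 0.20 (adjusted p = 0.484). In the astrocyte list 0 of 11 passed (median 0.07), with Ndrg2 at 0.18 ± 0.06 (adjusted p = 0.207).

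The summed signal of the myelin markers was 4879 to 6150 on high-fat diet and 3191 to 4298 on chow, so all 6 high-fat arrays were above all chow arrays. Mbp made up most of that sum on high-fat diet. The 7 myelin markers that did not pass summed to 1974 to 2471 on high-fat diet and 1705 to 2038 on chow, with 4 of 6 high-fat arrays above all chow arrays. As a mean log2 signal these 7 markers did not overlap, at 7.94 to 8.17 on high-fat diet and 7.64 to 7.91 on chow. The summed signal of the neuron markers was 4405 to 5217 on high-fat diet and 3032 to 4021 on chow, again without overlap. As a mean log2 signal, in which Meg3 counts no more than any other marker, the neuron groups overlapped, at 7.60 to 7.74 on high-fat diet and 7.24 to 7.61 on chow. Without Meg3 and Eno2 the other 13 neuron markers summed to 2084 to 2523 on high-fat diet and 1745 to 2234 on chow, again with overlap. The sums and the mean without the genes that passed were added after seeing the data. The astrocyte sums overlapped, at 17526 to 20080 on high-fat diet and 15804 to 18872 on chow. Other defining markers were called Present on 0 of the 12 ApoE3 arrays. These were Rbfox3, Syn1, Tubb3, Camk2a, Thy1, Nefl, Gria1 and Nrgn for neurons, Mog, Mag, Olig1 and Olig2 for oligodendrocytes, and Gfap, Slc1a2 and Agt for astrocytes. In captured tissue, more cells of a type and more RNA per cell cannot be told apart.

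With the mean of the tested brain markers of each array as a covariate, 2 probe sets passed in place of 35. Of these, 1 was among the 35, that of Nfkbia at 0.49 (adjusted p = 0.0492). With Mbp, Meg3 and Eno2 taken out of that mean, an alternative chosen after seeing the data, 0 passed, with 1511 at an unadjusted p under 0.05. In that fit the differences remained at 0.74 for Neat1 (adjusted p = 0.119), 0.47 for Pabpn1 (adjusted p = 0.0825), 0.49 for Pan2 (adjusted p = 0.0863) and 0.59 for Mbp (adjusted p = 0.157). The myelin markers in the brain marker mean did not overlap between the diets as a mean log2 signal, with or without Mbp. The fits with the brain marker mean therefore cannot separate diet from marker level. With the epithelial marker mean as a covariate 45 passed.

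**Figure D3:**
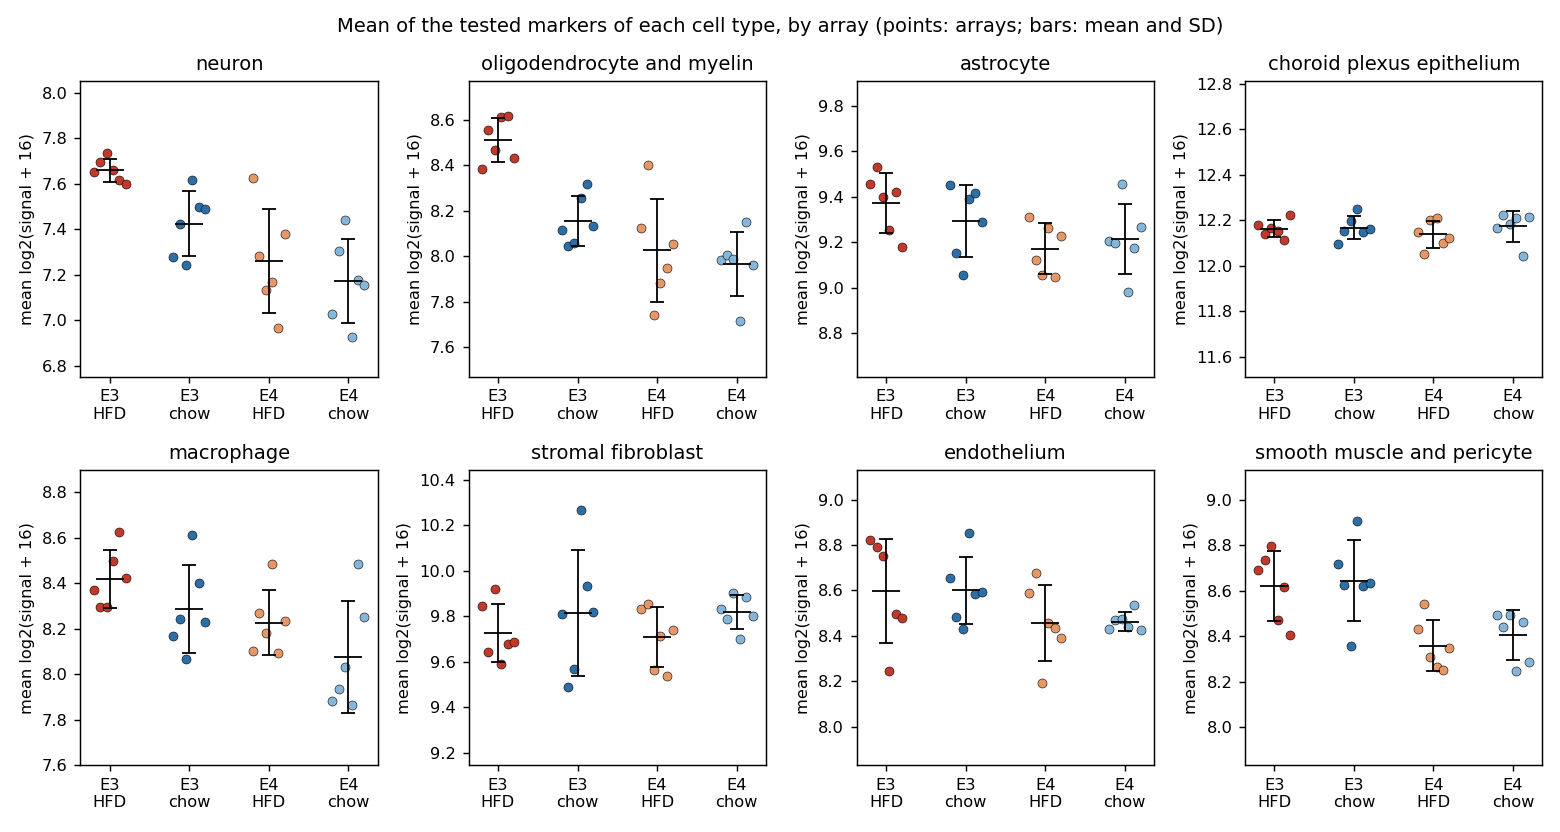
Mean log2(signal + 16) of the tested markers of 8 cell types (y axis, the same height of scale in every panel) by array, for ApoE3 high-fat diet, ApoE3 chow, ApoE4 high-fat diet and ApoE4 chow. Bars are mean and SD of 6 arrays. The myelin means of ApoE3 are 8.38 to 8.62 on high-fat diet and 8.04 to 8.32 on chow, and the epithelial means 12.11 to 12.22 and 12.10 to 12.25.

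Csf1r, the receptor for the growth factors that keep macrophages alive, rose on 1 of its 3 probe sets, by 0.39 ± 0.09 (adjusted p = 0.0433). That probe set read 526.1, 606 and 723 on high-fat diet and 403, 483 and 525.7 on chow, so the groups met without overlapping. The brighter Csf1r probe set gave the same difference, 0.39 ± 0.10, and did not pass (adjusted p = 0.0901). In the macrophage list, scored on the brightest probe sets, 0 of 20 passed and 16 were above 0, with a median of 0.08. F13a1, a macrophage transglutaminase, read 129 to 266 on high-fat diet and 84 to 139 on chow (0.70 ± 0.18, adjusted p = 0.0966), with 5 of 6 high-fat arrays above all chow arrays. C1qc, a chain of the complement starter C1q, differed by 0.47 ± 0.16 (adjusted p = 0.207) and was called Absent on 1 high-fat and 4 chow arrays. Aif1, Itgam and Cd14, further macrophage markers, were Present on 0 of the 12 arrays.

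Nfkbia, the inhibitor that holds NF-kB in the cytosol, rose on 1 of 4 probe sets, by 0.37 ± 0.08 (adjusted p = 0.0433). It read 989 to 1384 on high-fat diet and 775 to 1037 on chow, with 5 of 6 high-fat arrays above all chow arrays. On its brightest probe set it differed by 0.25 ± 0.08 (adjusted p = 0.207). The list of inflammatory cytokines and NF-kB targets had 0 of 15 passing and a median of 0.08. Icam1, an adhesion molecule for leukocytes, differed by 0.30 ± 0.12 (adjusted p = 0.305) and Il1b by 0.06 ± 0.12. Among 25 type I interferon genes 0 passed, 22 were above 0 and the median was 0.15, with Ifitm3 at 0.31 ± 0.11 (adjusted p = 0.221) and Irf7 at 0.15 ± 0.19.

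Among the genes of lipid handling 1 passed. Mylip encodes the ubiquitin ligase that sends the LDL receptor for degradation, and the sterol receptor LXR switches it on. It read 1136, 1161 and 1374 on high-fat diet and 796, 899 and 1051 on chow. The groups did not overlap, and Mylip rose by 0.42 ± 0.08 (1.34-fold, adjusted p = 0.0291). In the list of LXR targets and lipid efflux it was the 1 gene of 13 that rose, and 0 fell (median 0.08, 8 of 13 above 0). Abca1, the cholesterol exporter, read 2924 to 3648 on high-fat diet and 2005 to 3625 on chow (0.23 ± 0.10, adjusted p = 0.341). The phospholipid transfer protein Pltp differed by 0.18 ± 0.07 (adjusted p = 0.276) and the transporter Abca7 by 0.18 ± 0.08 (adjusted p = 0.381).

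No gene of sterol synthesis, fatty acid synthesis or fatty acid oxidation passed. Of 21 tested SREBP2 targets and sterol enzymes 4 were above 0, with a median of -0.10. Among them Msmo1, a sterol oxidase, differed by -0.33 ± 0.11 (adjusted p = 0.197) and Sc5d, a late sterol desaturase, by -0.26 ± 0.08 (adjusted p = 0.17). Srebf1, the regulator of fatty acid synthesis, read 2050 to 2949 on high-fat diet and 1719 to 2082 on chow, and its 0.32 ± 0.09 did not pass (adjusted p = 0.102). Scd1, the stearoyl desaturase, differed by 0.10 ± 0.09. The 28 tested genes of fatty acid oxidation and PPAR targets had a median of -0.03 and 11 above 0. Pdk4, which blocks glucose use when fat is burned, was at 0.13 ± 0.10, Cpt1a, which admits fatty acids to mitochondria, at -0.07 ± 0.09, and Plin2, a coat of lipid droplets, at 0.07 ± 0.08. Apod, an apolipoprotein of glia, read 3451 to 6121 on high-fat diet and 2072 to 5276 on chow (0.56 ± 0.15, adjusted p = 0.127), with overlapping groups.

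Hormone signalling genes did not pass either: 0 of 27 in the insulin, IGF and leptin list, whose median was 0.02. Lepr, the leptin receptor, read 674, 869 and 948 on high-fat diet and 935, 1046 and 1109 on chow. That gives -0.30 ± 0.10 (adjusted p = 0.204), with 5 of 6 high-fat arrays below all chow arrays, while its second probe set differed by 0.08. Insr was dim, at 36 to 60 on high-fat diet and 37 to 72 on chow. Of 20 glucocorticoid targets 0 passed and 18 were above 0 (median 0.13), with Fkbp5 at 0.25 ± 0.13 and Sgk1 at 0.09 ± 0.07.

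**Figure D4:**
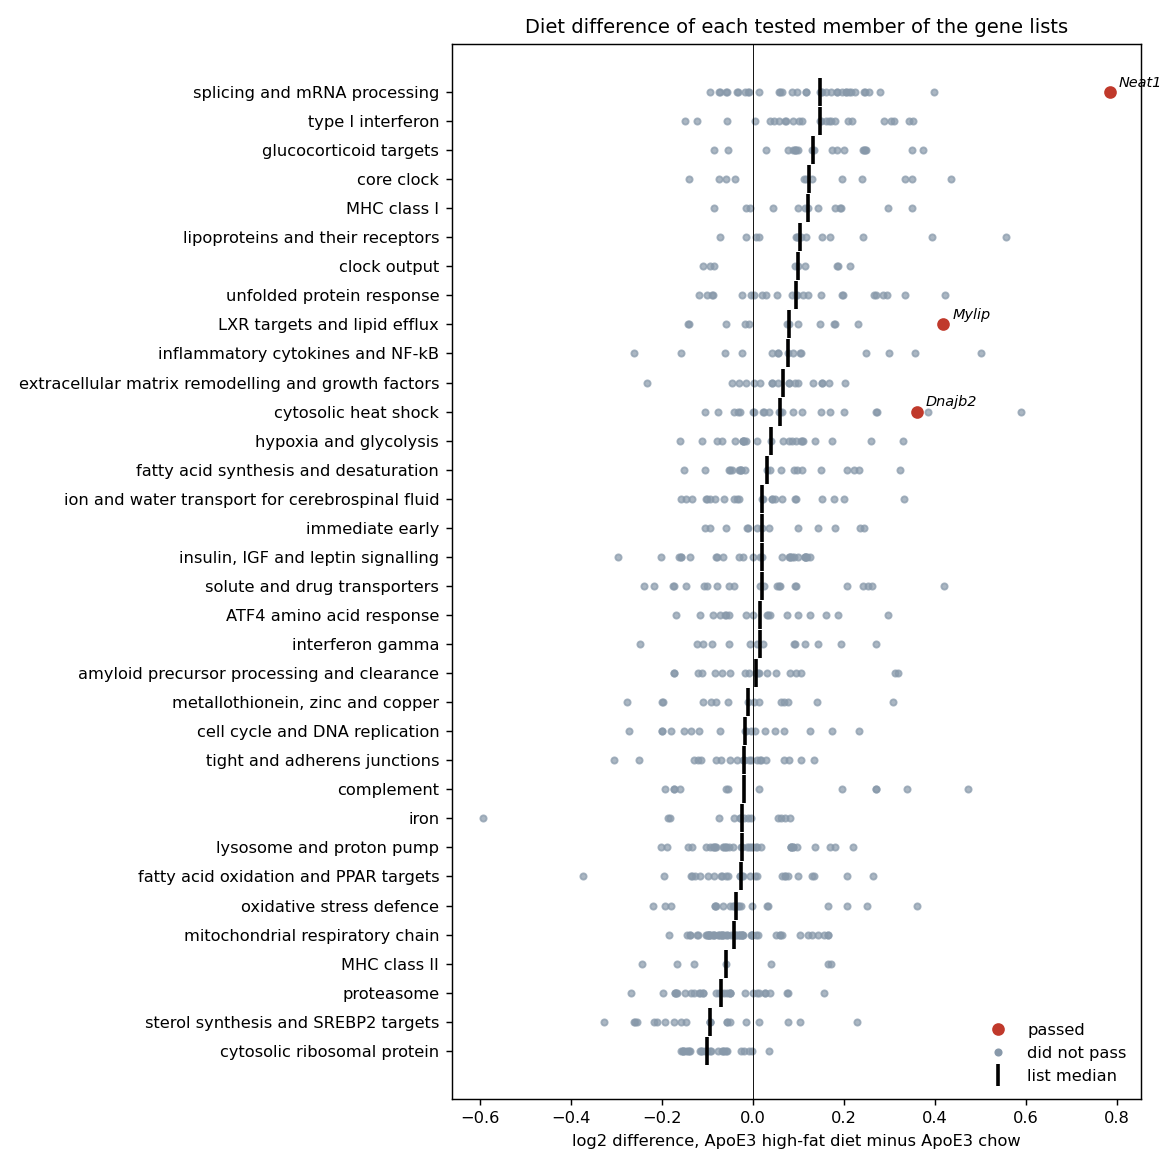
Log2 difference between ApoE3 high-fat diet and ApoE3 chow (x axis) of each tested member of 34 gene lists (rows, ordered by median, highest on top). Red points passed, and black bars are list medians, from -0.10 for ribosomal proteins to 0.15 for splicing and mRNA processing.

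Among the remaining lists, the ribosomal protein genes had the lowest median, -0.10, with 1 of 27 above 0 and 0 that passed. Rps18 read 10691 to 11304 on high-fat diet and 11415 to 12984 on chow, without overlap, which is -0.16 ± 0.05 (adjusted p = 0.206). The proteasome list had 0 of 31 passing, 8 above 0 and a median of -0.07, with the ATPase subunit Psmc6 at -0.27 ± 0.07 (adjusted p = 0.0947). The respiratory chain list had a median of -0.04 over 53 genes and 0 that passed. Transport genes for cerebrospinal fluid, solute and drug carriers and tight junctions had medians between -0.02 and 0.02 and 0 that passed among 23, 22 and 22 genes. Folr1, the folate receptor of the epithelium, differed by -0.15 ± 0.06 (adjusted p = 0.326) and Ttr by -0.02 ± 0.13. Tfrc, the transferrin receptor for iron uptake, read 382 to 783 on high-fat diet and 654 to 1378 on chow (-0.59 ± 0.23, adjusted p = 0.303).

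The other genes that passed have varied roles. Dnajb2, a co-chaperone of Hsp70, read 817 to 1005 on high-fat diet and 614 to 811 on chow, without overlap, and rose by 0.36 ± 0.08 (adjusted p = 0.0396). It was the 1 of 23 tested genes of the cytosolic heat shock list that passed, and Hspb1, a small heat shock protein, differed by 0.27 ± 0.10 (adjusted p = 0.275). Preb, which starts the coat of vesicles leaving the endoplasmic reticulum, rose by 0.37 ± 0.08 (adjusted p = 0.0342), Napa, which helps to recycle membrane fusion complexes, by 0.31 ± 0.07 (adjusted p = 0.0478) and Fbxw5, an adaptor of a ubiquitin ligase, by 0.47 ± 0.10 (adjusted p = 0.0341). Sirt7, a deacetylase of the nucleolus, read 558 to 698 on high-fat diet and 404 to 532 on chow, without overlap, and rose by 0.42 ± 0.09 (adjusted p = 0.0291). Arhgap17 rose by 0.50 ± 0.10, the transcription factor Ubp1 by 0.33 ± 0.06 and the calpain Capn15 by 0.46 ± 0.09 (adjusted p = 0.0291 each). Eps8l2, a regulator of actin, rose by 0.41 ± 0.09 (adjusted p = 0.0433), the topoisomerase Top3b by 0.35 ± 0.07 (adjusted p = 0.0397) and 2310061I04Rik by 0.33 ± 0.07 (adjusted p = 0.0428). Top3b's brightest probe set, at 0.38 (adjusted p = 0.0616), and its dimmest, at -0.05, did not pass, nor did the brighter 2310061I04Rik probe set, at 0.26 (adjusted p = 0.116). Second probe sets of Capn15, Preb and Napa, at 0.38, 0.38 and 0.26, did not pass either. Pisd-ps3 rose by 0.39 ± 0.07 and 0.33 ± 0.07 on its 2 probe sets. It is a pseudogene of Pisd, so its probes can bind Pisd transcripts too. The other 4 probe sets that rose name no single gene, and rose by 0.50 to 0.61. The highest of them, at 0.61 ± 0.10, had the smallest p of all probe sets (adjusted p = 0.0141), and its groups did not overlap.

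Nsmce1, a subunit of the DNA repair complex SMC5/6, was the 1 gene that fell. It read 378, 440.1 and 499.5 on high-fat diet and 497, 573 and 709 on chow. High-fat replicate 3 lay just inside the chow range and the other 5 high-fat arrays below it, and the difference was -0.39 ± 0.08 (adjusted p = 0.0433). Its brighter probe set differed by -0.06. Among probe sets of 1 gene, the next smallest p-values below 0 were those of Cops2, a subunit of the COP9 signalosome (-0.26 ± 0.06, adjusted p = 0.0685), and Vps35, a subunit of the retromer that sorts proteins from endosomes (-0.25 ± 0.06, adjusted p = 0.0719). They were followed by the isocitrate dehydrogenase gene Idh1 (-0.27 ± 0.07, adjusted p = 0.0728), the nucleolar protein gene Npm1 (-0.26 ± 0.06, adjusted p = 0.0728), the splicing factor Prpf38a (-0.40 ± 0.10, adjusted p = 0.0728) and Txndc9 (-0.26 ± 0.06, adjusted p = 0.0728). Vps35 read 3322 to 3672 on high-fat diet and 3459 to 4653 on chow.

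In ApoE4 mice the same diets gave no probe set that passed (0%), with 923 at an unadjusted p under 0.05. The ApoE4 arrays had 56.0% to 60.5% of probe sets called Present, against 52.9% to 58.1% in ApoE3. Their hybridization controls had a mean log2 signal of 10.5 to 11.4, against 11.2 to 11.6. The bearing of this on the comparison of genotypes was not tested. The 35 probe sets that passed in ApoE3 had a median of 0.02 in ApoE4, between -0.33 and 0.40, where the median over all probe sets was -0.01. They were picked by their values in ApoE3, and that choice alone favours smaller differences in ApoE4. Of the 34 that rose in ApoE3, 19 were above 0 in ApoE4. Mbp averaged 1616 ± 373 on high-fat diet and 1597 ± 423 on chow in ApoE4 (SD, n = 6 each), and Neat1 averaged 1223 ± 309 and 1575 ± 575. Mylip and Nfkbia were at 0.29 and 0.40 in ApoE4. The difference between the genotypes was tested as an interaction, ApoE3 diet difference minus ApoE4 diet difference, and 0 probe sets passed (0%), with 1322 at an unadjusted p under 0.05 and a lowest adjusted p of 0.187. The count was 2 with the replicate block and 2 with the epithelial marker mean as a covariate. The smallest p above 0 was that of Neat1 (1.12 ± 0.22), followed among named genes by Npepps, Tial1, Ttc14 and Slc6a17 at 0.43 to 0.68. Below 0 it was that of Idh1 (-0.41 ± 0.09), with Cops2, Npm1, Nt5c3 and Gpm6a at -0.47 to -0.35.

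The diet difference in ApoE3 itself depended on sex for a few genes. In the test of male minus female diet difference, 7 probe sets passed (0.0502%), 3 above and 4 below 0, with 1207 at an unadjusted p under 0.05. Cry1, a repressor of the circadian clock, gave the smallest p. Male arrays read 204, 229 and 223 on high-fat diet and 327, 517 and 459 on chow. Female arrays read 531, 536 and 499 on high-fat diet and 236, 215 and 230 on chow. Cry1 was thus lower on high-fat diet in males and higher in females, without overlap within either sex. The diet difference was -0.92 ± 0.18 in males and 1.15 ± 0.18 in females, and the difference between them -2.07 ± 0.26 (adjusted p = 0.000442).

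Per2, a partner of Cry1 in the clock, read 376, 324 and 287 on high-fat diet and 255, 594 and 496 on chow in males. In females it read 711, 667 and 663 on high-fat diet and 246, 206 and 438 on chow. Its interaction was -1.58 ± 0.63 and did not pass (adjusted p = 0.499). Dbp, a clock output factor, differed by 0.13 ± 0.40 in males and -0.35 ± 0.40 in females, and Arntl by -0.03 ± 0.32 and -0.25 ± 0.32. In the core clock list 0 of 12 genes passed the diet test over both sexes, with the clock kinase Csnk1e nearest at 0.33 ± 0.09 (adjusted p = 0.0901). The labels give no time of day for tissue collection, and its part in these values was not tested.

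Tcl1b3 read 990, 977 and 953 on high-fat diet and 2026, 2195 and 2258 on chow in males, against 1268, 1259 and 911 on high-fat diet and 1122, 1050 and 1105 on chow in females (interaction -1.19 ± 0.20, adjusted p = 0.028). Mtfr1l, linked to mitochondrial fission, and the helicase Ddx59 also passed below 0, at -1.10 ± 0.20 (adjusted p = 0.0371) and -1.08 ± 0.20 (adjusted p = 0.0404). Above 0 were Cavin1, a coat protein of caveolae (1.20 ± 0.22, adjusted p = 0.0402), the matrix protease Mmp2 (1.08 ± 0.20, adjusted p = 0.0404) and the chaperone Calr (0.93 ± 0.17, adjusted p = 0.0402). Cavin1 read 619, 575 and 646 on high-fat diet and 471, 445 and 471 on chow in males, and 283, 306 and 563 on high-fat diet and 732, 590 and 644 on chow in females.

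Marker levels of the stroma and vessels also differed by diet in opposite directions in the sexes, which was not tested itself. The 20 stromal fibroblast markers had a median diet difference of 0.15 in males and -0.33 in females, and the 17 endothelial markers 0.33 and -0.19. The stromal mean log2 signal overlapped in males, at 9.64 to 9.92 on high-fat diet and 9.49 to 9.81 on chow. In females it did not, at 9.59 to 9.69 and 9.82 to 10.27. The smooth muscle and pericyte mean also overlapped in males, at 8.69 to 8.79 on high-fat diet and 8.36 to 8.72 on chow. The endothelial mean log2 signal was 8.75 to 8.82 on high-fat diet and 8.43 to 8.66 on chow in males, and 8.24 to 8.50 on high-fat diet and 8.58 to 8.85 on chow in females, without overlap in either sex. With the stromal and vascular marker mean as a covariate, chosen after seeing the data, 0 of the sex interactions passed, with 563 at an unadjusted p under 0.05. Cry1 was then at -1.74 (adjusted p = 0.299) and Cavin1 at 0.89 (adjusted p = 0.981). The covariate's endothelial markers differed by diet in opposite directions in the sexes, so this fit cannot separate the interaction from marker level. Cry1 passed in 28 of its 29 alternative fits, that covariate being the exception. The count of sex interactions was 1 without high-fat replicate 1, 3, 4 or 5 or chow replicate 4, 2 without high-fat replicate 2 or chow replicate 2, 3 or 6, 4 without high-fat replicate 6 and 18 without chow replicate 1.

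**Figure D5:**
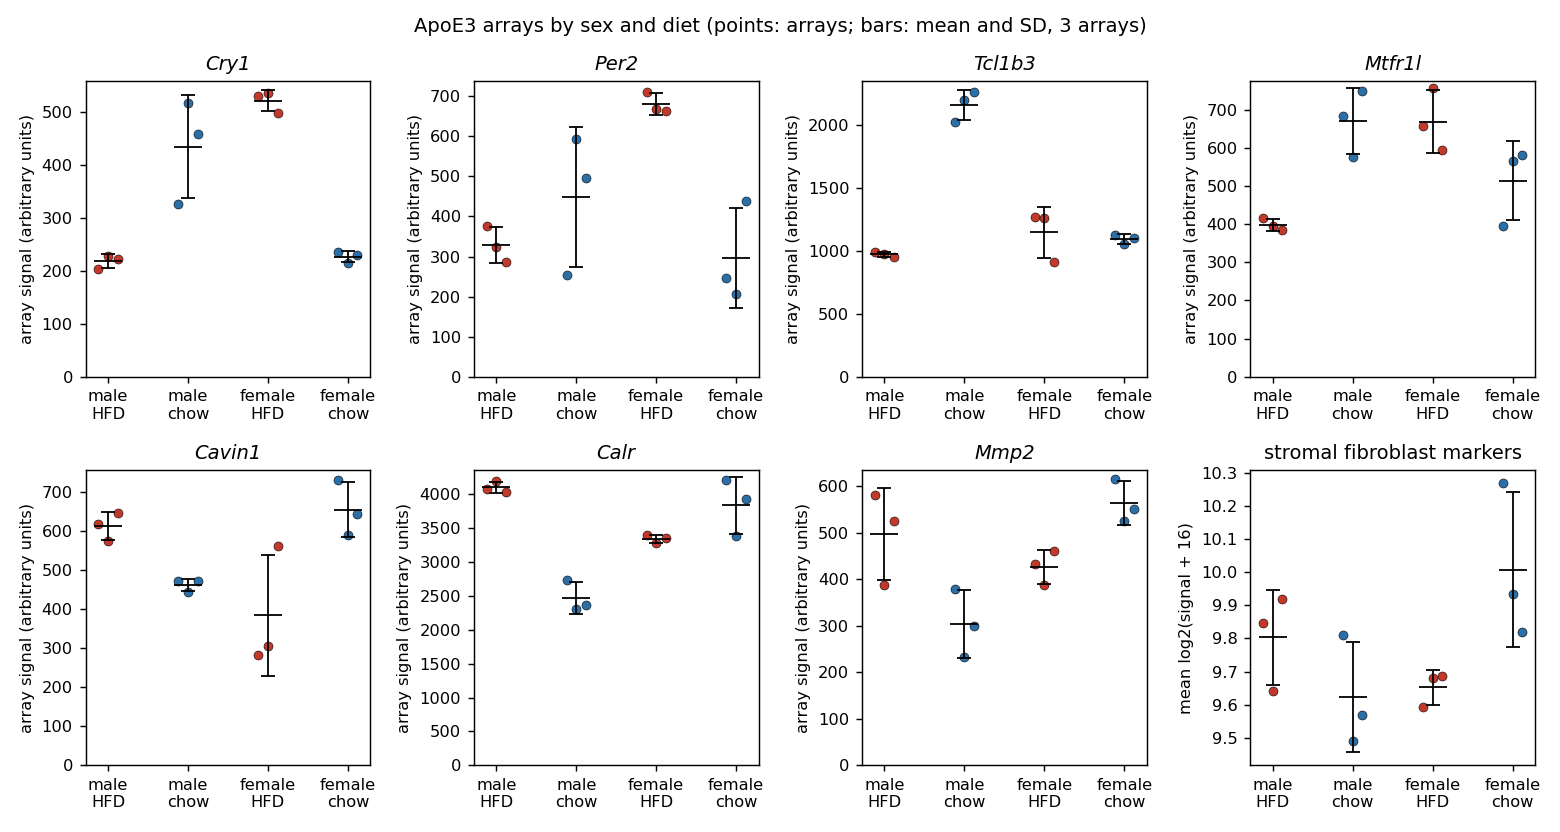
Array signal (arbitrary units, from 0) of 7 genes, and the mean log2(signal + 16) of the stromal fibroblast markers, in ApoE3 arrays by sex and diet. Points are arrays and bars mean and SD of 3 arrays. Cry1 is 204 to 229 on high-fat diet and 327 to 517 on chow in males, and 499 to 536 on high-fat diet and 215 to 236 on chow in females.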

How the data were processed

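Choroid plexus RNA of all 24 samples had been taken by laser capture from fresh-frozen tissue, per the labels' protocols, and read on Affymetrix arrays. The deposited intensity values were made by the authors with GCOS 1.4, per the submitters' processing notes, and their trimmed mean, computed here, lay between 500.173 and 500.194 on every array. Which GCOS algorithm was run is not given in the sources used here. A Present, Marginal or Absent call was deposited for each intensity and served as a filter. The second deposited table held the same intensities in 544560 of 544560 cells. Arrays have no read depth, so precision depends on how many there are and on the spread of each probe set between them.

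The array has 22690 probe sets. After removal of 64 controls, the 13936 that were Present on at least 6 of 24 arrays were kept. Of these, 12733 named 1 gene by the array's annotation (8261 genes). Values were log2(signal + 16), which understates the differences of dim genes. The main model, in limma 3.58.1 (R 4.3.3), had 4 group means and a sex term over the 24 arrays, with trended and robust empirical Bayes. A second model with a mean for each group and sex gave the sex interaction. Benjamini-Hochberg adjustment of the two-sided p-values ran over the kept probe sets, and an adjusted p under 0.05 passed. Array measures were compared by two-sided exact permutation tests, whose smallest possible p was 0.00216. The fit was also run on simulated arrays with independent noise, as a check of the code and not of the calls made here. Python 3.11.15 and matplotlib 3.10.9 drew the figures.

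The comparison, the 47 gene and marker lists and the tests were chosen with earlier results of these data known. Lists were scored on the brightest probe set of each gene. Named genes were the 12 largest rises and falls that passed, filled with the smallest p-values where fewer passed, the 4 members of smallest p in lists with a passing member and 2 in others, 22 fixed genes where measured, and 5 per direction for each interaction. Further genes that passed are named as well. Malat1 lies outside this rule and was chosen after its values were seen. The alternatives are given with the limits.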

Additional observations from a re-analysis of the deposited data

Results flagged for a closer look

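Within the groups of 6 ApoE3 arrays, 12 of 352 gene and marker values had 1 array far from the other 5, by a gap of more than 0.625 of the group's range. Chance flags about 1 in 20 groups. On high-fat diet Ttr read 25450 in replicate 6 and at most 18394.3 in the others (gap 0.842 of the range), Idh1 2563.6 in replicate 1 (0.797), Csnk1e 271.9 in replicate 5 (0.763), Vps35 3672 in replicate 3 (0.737), Srebf1 2948.6 in replicate 4 (0.718), Capn15 604.7 in replicate 6 (0.709), Sc5d 681.6 in replicate 5 (0.699) and Eps8l2 991.7 in replicate 4, the lowest (0.661). On chow Rgs5, a pericyte gene, read 9159.8 in replicate 4 and at most 5518.2 in the others (0.691). In the same array Fabp4, and with it the adipocyte marker mean, which rests on this 1 gene, was highest (0.672 for both), at 171.2 against 93.9 to 114.9. Icam1 was lowest in chow replicate 3, at 174.3 (0.651).

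The diet difference in males minus that in females passed for 7 genes. It was -2.07 for Cry1, -1.19 for Tcl1b3, -1.10 for Mtfr1l and -1.08 for Ddx59, and 1.20 for Cavin1, 1.08 for Mmp2 and 0.93 for Calr. Chow replicate 4, a female, also had the highest stromal fibroblast marker mean of the 12 arrays, 10.27.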

How the results depend on the processing

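The 35 probe sets that passed the diet test became 5 with no filter on detection calls, 19 with 1 probe set per gene, 128 with array weights (107 higher, 21 lower, and all 35 among them), 14 with plain empirical Bayes, 15 with only the 12 ApoE3 arrays, 2 when the mean of the brain markers entered the model and 0 with that mean taken without Mbp, Meg3 and Eno2 (limma, 1511 at an unadjusted p under 0.05). Leaving out 1 array gave 1 to 78. Other pseudocounts, stricter filters, quantile normalization and the remaining covariates kept the count within 1.5 times, though not always the same probe sets. With the Actb 3' to 5' ratio as a covariate 24 passed, 20 of them among the 35. The replicate block gave 42, of which 30 were among the 35, and no sex term 25, all of them among the 35. Of the 15 with only the ApoE3 arrays, 10 were among the 35, and of the 14 with plain empirical Bayes 13 were. The diet by genotype count of 0 became 2 with the epithelial marker mean as a covariate and 2 with the replicate block. Replicate numbers did not pair the samples: same-numbered arrays of the 2 diets correlated by -0.04 to 0.09 in their deviations, and 1 of 6 matched its own number best. The 7 sex interactions became 12 after quantile normalization, 1 with no filter, 2 with plain empirical Bayes, 2 with either brain marker mean, 4 with the hybridization control mean, 0 with the stromal and vascular marker mean (limma, 563 at an unadjusted p under 0.05), 5 with the replicate block and 1 to 18 without 1 array. The stromal and vascular mean and the brain mean without 3 genes were chosen after seeing the data. The causes of these changes were not tested.

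Gene by gene, the alternative values of the passing genes kept sign and threshold in 507 cases, kept the sign but no longer passed in 467 and changed sign in 0. Of 137 named values that did not pass, 11 changed sign under some alternative and 22 passed under some. List medians moved by less than the spread between arrays in 1395 cases and by more in 15. Leaving out 1 array moved no array measure across the threshold.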

Other observations

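Col3a1, a fibrillar collagen of the stroma, read 104 to 231 on high-fat diet and 124 to 547 on chow in ApoE3 (-0.45 ± 0.23, limma adjusted p = 0.442), with diet differences of -0.02 in males and -0.88 in females. Rgs5 was at -0.24 ± 0.13 (limma adjusted p = 0.473), with 0.17 in males and -0.65 in females. Slc22a8, an organic anion carrier of the epithelium, read 305, 247 and 252 on high-fat diet and 278, 749 and 354 on chow in males, and 780, 535 and 781 on high-fat diet and 291, 210 and 303 on chow in females. Its sex interaction was -1.95 ± 0.40 and did not pass (limma adjusted p = 0.0783). Cd93, an endothelial receptor, was at 1.52 ± 0.30 in that test (limma adjusted p = 0.0636).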
